A study of Homo sapiens with 3 samples.

Results

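Desmosomes are button-like junctions that rivet neighbouring epithelial or heart muscle cells together. Desmosomal cadherins (the desmocollins and desmogleins) join the membranes of the cells, armadillo proteins (plakoglobin and the plakophilins) bind the cadherin tails, and desmoplakin ties this plaque to the intermediate filaments. Stratified epithelia such as epidermis are the best known site of several of these proteins. The 8 genes described here were DSC2 and DSC3 (desmocollins), DSG1 and DSG3 (desmogleins), JUP (plakoglobin), PKP1 (plakophilin 1), DSP (desmoplakin) and PERP, which encodes a tetraspan membrane protein of desmosomes and is a target of p53 and p63. They were taken as every listed peak that carries one of the 8 symbols, each position once. The list gave 14 of 11565 Flag-USP39 peaks and 20 of 14027 POLR2A peaks. The authors' p-value thresholds were 1e-05 for Flag-USP39 and 1e-04 for POLR2A, and at 1e-05 in both lists 14 Flag-USP39 and 12 POLR2A peaks remained. The genes were selected on the presence of listed peaks and their tags in these same tables, so the values describe the lists and no test was made.

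Chromatin immunoprecipitation with sequencing was done in A2780, labelled a serous ovarian cancer line, carrying Flag-tagged USP39, a spliceosome-associated member of the ubiquitin-specific protease family. The 3 libraries were an anti-Flag precipitation (Flag-USP39), an anti-POLR2A precipitation (the largest subunit of RNA polymerase II, the study's positive control) and an input library from 10% of genomic DNA. How the tagged protein was introduced, and whether the line is 1 clone, is not stated in the sources used here. Each group held 1 library and both antibodies were set against the same input, so nothing has a replicate error and the overlap between the lists may include what the input brings to both.

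Tag counts, fold enrichments and peak scores (-10 times log10 of each peak's p-value) are the authors' own, and positions are on hg19. Both lists had a median of 4 tags per peak. The smallest listed peaks held 3 Flag-USP39 and 4 POLR2A tags, so a site with fewer could not appear. All Flag-USP39 peaks together held 62327 tags and all POLR2A peaks 86228, and the total depth of the libraries is unknown. Of 11 ovarian epithelial cancer markers, 2 had a Flag-USP39 peak (9 tags in all, 0 to 6 per gene) and 4 a POLR2A peak (22 tags, 0 to 9 per gene), where 25.1% and 33.3% of all protein-coding genes had one. None of these peaks was at a promoter, where 2.47% (Flag-USP39) and 11.1% (POLR2A) of coding genes had one. WT1 and KRT8 had peaks in both lists, and PAX8 and CLDN4 in the POLR2A list, of 3 to 5 tags each. All the Flag-USP39 peaks of WT1 and KRT8 were intergenic, 20832 to 99414 bp from the start site. For POLR2A, KRT8 had an intron peak, and WT1 an intron and an intergenic peak. The CLDN4 peak was intergenic and the PAX8 peak lay 10817 bp upstream. EPCAM, MUC16, MSLN, CLDN3, KRT7, KRT18 and KRT19 had no peak in either list.

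Most desmosome genes carried tags of both antibodies, many of them in exons, and none had a listed promoter peak. Peaks with a member's symbol were found at 6 of the 8 genes for Flag-USP39 and at 6 for POLR2A, against 25.1% and 33.3% of 20056 protein-coding genes. For both antibodies DSC3, DSG3, DSP, JUP and PERP had a peak, and 12.8% of coding genes did. Listed for 1 antibody were DSC2 (Flag-USP39) and PKP1 (POLR2A), and DSG1 had no peak of either. The peaks summed to 139 Flag-USP39 tags (0.223% of the tags in that list) and 195 POLR2A tags (0.226%). PERP took 53 of the Flag-USP39 tags (38.1%) and 62 of the POLR2A tags (31.8%). Counted by position inside the members' transcripts, whatever symbol the tables give, the tags came to 372 for Flag-USP39 and 386 for POLR2A. That count was chosen after the data were seen.

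**Figure D1:**
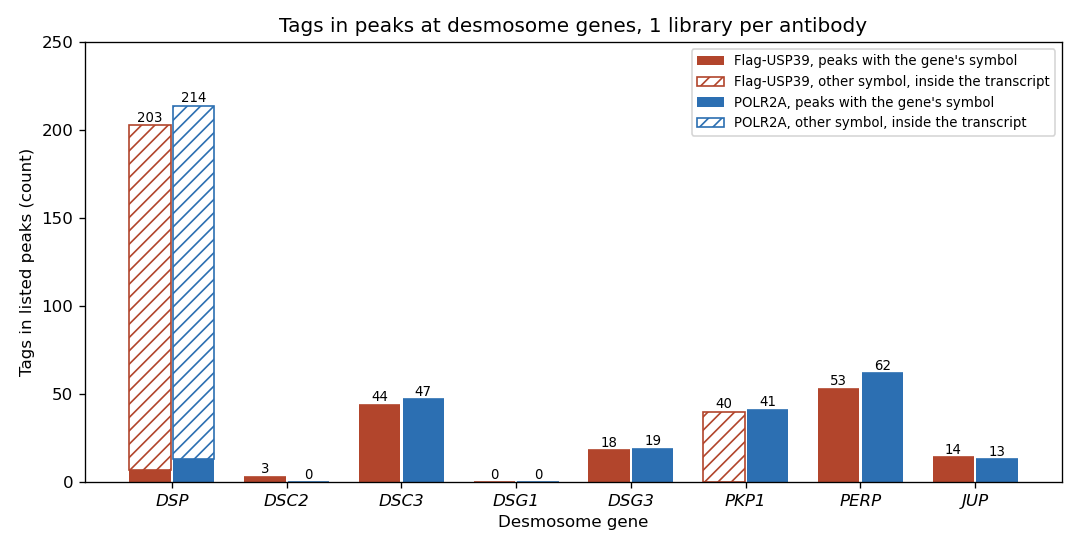
Tags in listed peaks (count, y axis) at each desmosome gene for Flag-USP39 (red) and POLR2A (blue), 1 library each. Filled bars are peaks with the gene's own symbol and hatched bars are peaks inside its transcript under another symbol, which make up nearly all of the 203 Flag-USP39 and 214 POLR2A tags at DSP.

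Under the members' own symbols, exon peaks held most of the tags. Of the 14 Flag-USP39 peaks 9 were of the exon class (64.3%, 95% Wilson interval 38.8 to 83.7), against 4.38% of the whole Flag-USP39 list. Of the 20 POLR2A peaks 9 were of the exon class (45.0%, 25.8 to 65.8), against 4.62% of the POLR2A list. Among exon and intron peaks alone, the exon share was 9 of 13 Flag-USP39 peaks (69.2%) against 12.4% in its list, and 9 of 18 POLR2A peaks against 14.3%. The exon peaks held 119 of 139 Flag-USP39 tags (85.6%) and 143 of 195 POLR2A tags (73.3%). Of the 372 Flag-USP39 and 386 POLR2A tags counted by position, 236 and 201 lay in peaks under other symbols, which the tables class as upstream or intergenic. At a p-value of at most 1e-05 in both lists, 9 of 14 Flag-USP39 and 8 of 12 POLR2A peaks were of the exon class. The intervals cover counting error only, and neighbouring peaks of 1 gene are not independent.

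Exon peaks were listed at 5 of 8 genes for each antibody, at DSC3, DSG3, JUP and PERP for both, at DSP for Flag-USP39 and at PKP1 for POLR2A. Over all protein-coding genes, 2.11% had an exon peak of Flag-USP39, 2.73% one of POLR2A and 0.598% one of each. At the promoter, within 2 kb of a start site, lay 0 of 14 Flag-USP39 peaks (5.78% of its list) and 0 of 20 POLR2A peaks (17.9%), with upper Wilson bounds of 21.5% and 16.1%. By gene, 0 of 8 genes had a promoter peak of either antibody, where 2.47% of protein-coding genes had one of Flag-USP39 and 11.1% one of POLR2A. A count of 0 of 8 has an upper Wilson bound of 32.4%, above both shares.

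Exon peaks of the members lay late in the transcript, as did exon peaks in general. The median peak centre was 85.8% of the way from start site to transcript end for Flag-USP39 (52.8% to 98.3%) and 91.3% for POLR2A (53.3% to 96.4%). Over all exon peaks the medians were 88.5% (Flag-USP39) and 90.0% (POLR2A). Beyond 75% of the transcript lay 6 of 9 Flag-USP39 exon peaks (66.7%, against 65.7% of its list) and 6 of 9 POLR2A exon peaks (66.7%, against 71.8%). These shares are near the background. Counted by position, the members differed in how many of their tags lay that late: for JUP 57.1% of Flag-USP39 and 0 of 9 POLR2A tags did, and for DSG3 44.4% and 73.7%. Intron peaks of the members had median positions of 30.1% (Flag-USP39) and 51.1% (POLR2A) and held at most 5 and 8 tags.

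**Figure D2:**
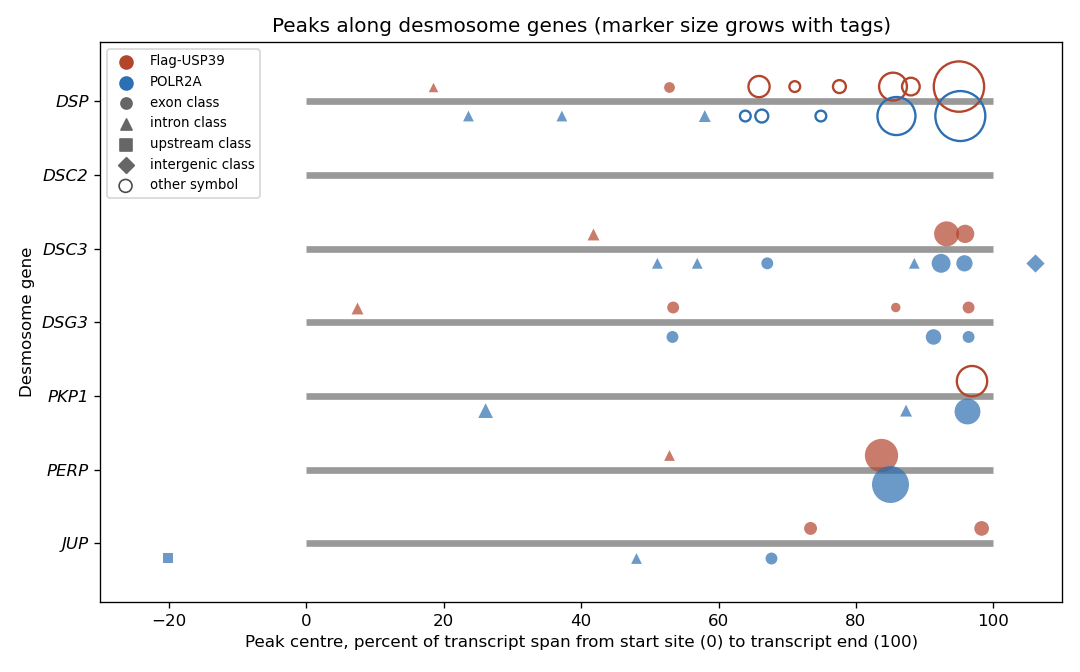
Peak centres along 7 desmosome genes, from the start site (0%) to the transcript end (100%), with Flag-USP39 above and POLR2A below each gene line and marker size growing with tags. The peaks with the most tags sit in the right-hand part of DSP, PKP1, PERP and DSC3, DSC2 has none inside its transcript (its 1 peak lies off the plot, upstream), and DSG1, with no listed peak, is left out.

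Among the desmocollins, DSC3, the isoform of basal epidermal cells, had 3 Flag-USP39 peaks and 7 POLR2A peaks, the most of any member for POLR2A. Its 2 exon peaks of Flag-USP39 held 26 tags at chr18:28572216-28573764 and 13 tags at chr18:28571061-28571933, with fold enrichments of 22.95 and 46.19. They ranked 18 and 27 by p-value among 507 exon peaks of that list. POLR2A had exon peaks of 14 tags at chr18:28572726-28574035 and 10 tags at chr18:28571214-28571914, each overlapping its Flag-USP39 counterpart. These peaks were centred between 2167 and 4050 bp before the transcript end. Another POLR2A exon peak, of 5 tags, lay at 67.1% of the transcript with no Flag-USP39 partner.

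The intron peaks of DSC3 were near the lower limit of the lists. Flag-USP39 had 1, of 5 tags at 41.7% of the transcript, and POLR2A had 3, of 4 tags each at 51.1%, 56.9% and 88.5%. None of them met a peak of the other antibody. A POLR2A peak of 6 tags at chr18:28565697-28566201, of the intergenic class, was centred 3381 bp beyond the transcript end.

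DSC2, the desmocollin found in simple epithelia and heart as well as in skin, had a single Flag-USP39 peak of 3 tags and no POLR2A peak. That peak, at chr18:28712443-28712714, was of the intergenic class and 30183 bp upstream of the DSC2 start site. By position it lay inside the transcript of DSC1, the neighbouring desmocollin gene, so no listed peak of either antibody fell inside DSC2 itself.

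Among the desmogleins, DSG3, the pemphigus vulgaris antigen, had 4 Flag-USP39 peaks with 18 tags and 3 POLR2A peaks with 19 tags. Flag-USP39 exon peaks held 5 tags at chr18:29043994-29044535, 3 at chr18:29054140-29054405 and 5 at chr18:29057262-29057824, and an intron peak of 5 tags lay 2280 bp from the start site. POLR2A exon peaks held 5 tags at chr18:29044067-29044353, 9 at chr18:29055541-29056391 and 5 at chr18:29057266-29057839. The first and the last exon sites were listed for both antibodies with equal tags, and the middle ones did not overlap. An exact Poisson 95% interval for 5 tags runs from 1.62 to 11.7.

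DSG1, the desmoglein of the upper epidermis and the pemphigus foliaceus antigen, had no peak under its own symbol. In the reference annotation DSG1 overlaps the antisense gene DSG1-AS1, and in each list the peak with the most tags at the desmosomal cadherin genes described here carried that name. Flag-USP39 had 39 tags (27.7 to 53.3) at chr18:28934304-28936653, with a fold enrichment of 65.98 and rank 72 by p-value in its list. POLR2A had 43 tags (31.1 to 57.9) at chr18:28934215-28936837, with a fold enrichment of 39.21 and rank 102. The tables class both as promoter peaks of DSG1-AS1, centred 1579 and 1627 bp upstream of its nearer start site. By position both lay wholly inside a longer DSG1-AS1 transcript, at chr18:28923330-29006951. The hg19 span of DSG1 was not used here, so whether the tags belong to DSG1 or to its antisense gene was not tested. DSG1-AS1 had 6 other Flag-USP39 peaks of 3 to 9 tags and 4 other POLR2A peaks of 4 or 5 tags.

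Among the armadillo proteins, JUP, whose product plakoglobin also serves adherens junctions, had exon peaks of both antibodies at different sites. Flag-USP39 had 8 tags at chr17:39910862-39911917, centred 531 bp before the transcript end, and 6 tags at chr17:39919058-39919723. POLR2A had 5 tags at chr17:39921060-39921471 in an exon, 4 in an intron at chr17:39927425-39927701, and 4 at chr17:39949157-39949693, 6461 bp upstream of the start site. None of the JUP peaks overlapped between the antibodies.

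PKP1, the plakophilin of stratified epithelia, had 3 POLR2A peaks and none of Flag-USP39 under its own symbol. The largest POLR2A peak held 28 tags (18.6 to 40.5) in an exon at chr1:201298813-201301571, centred 1929 bp before the transcript end. The other 2 were intronic, with 8 tags at chr1:201265214-201265816 and 5 at chr1:201295541-201296090. A Flag-USP39 peak of 40 tags (28.6 to 54.5) lay on the same site, at chr1:201299320-201301878, and shared 2252 bp with the POLR2A peak. The table names it intergenic for TNNT2, the cardiac troponin T gene, whose start site is 46229 bp away, yet it lies wholly within PKP1 at 96.9% of the transcript. By position, then, PKP1 carried 40 Flag-USP39 and 41 POLR2A tags.

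DSP, which encodes desmoplakin, the plakin that anchors intermediate filaments, had few tags under its own symbol. Flag-USP39 had 4 tags in an exon at chr6:7565502-7565811 and 3 in an intron at chr6:7549990-7550260, and POLR2A had 3 intron peaks of 4, 4 and 5 tags. None of these overlapped between the antibodies.

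The 3′ part of DSP held far more tags, in peaks that the tables name for SNRNP48, the next gene downstream, which encodes a minor spliceosome protein. Inside the DSP transcript lay 6 such Flag-USP39 peaks with 196 tags and 5 POLR2A peaks with 201 tags, all of the upstream class. The largest held 123 Flag-USP39 tags (102 to 147) at chr6:7582639-7586780 and 121 POLR2A tags (100 to 145) at chr6:7582762-7586820. They shared 4019 bp, ended before the DSP transcript did and were centred 5722 and 5640 bp upstream of the SNRNP48 start site. The next held 33 Flag-USP39 tags at chr6:7579484-7581209, with 12 more at chr6:7581289-7581807, where POLR2A had 1 peak of 66 tags at chr6:7579516-7581688. A site of 18 Flag-USP39 tags at chr6:7571248-7571901 held 6 POLR2A tags.

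Counted by position, DSP carried 203 Flag-USP39 and 214 POLR2A tags, and most of them, 85.7% and 87.4%, lay beyond 75% of the transcript. The strongest DSP peak ranked 28 by p-value for Flag-USP39 and 48 for POLR2A. Over the whole lists, 311 of 1502 Flag-USP39 and 486 of 1946 POLR2A upstream peaks lay inside a transcript of another gene in the tables, and of intergenic peaks, the class of the peak inside PKP1, 6.87% and 5.59% did. Over all classes the shares were 6.21% and 6.02%.

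**Figure D3:**
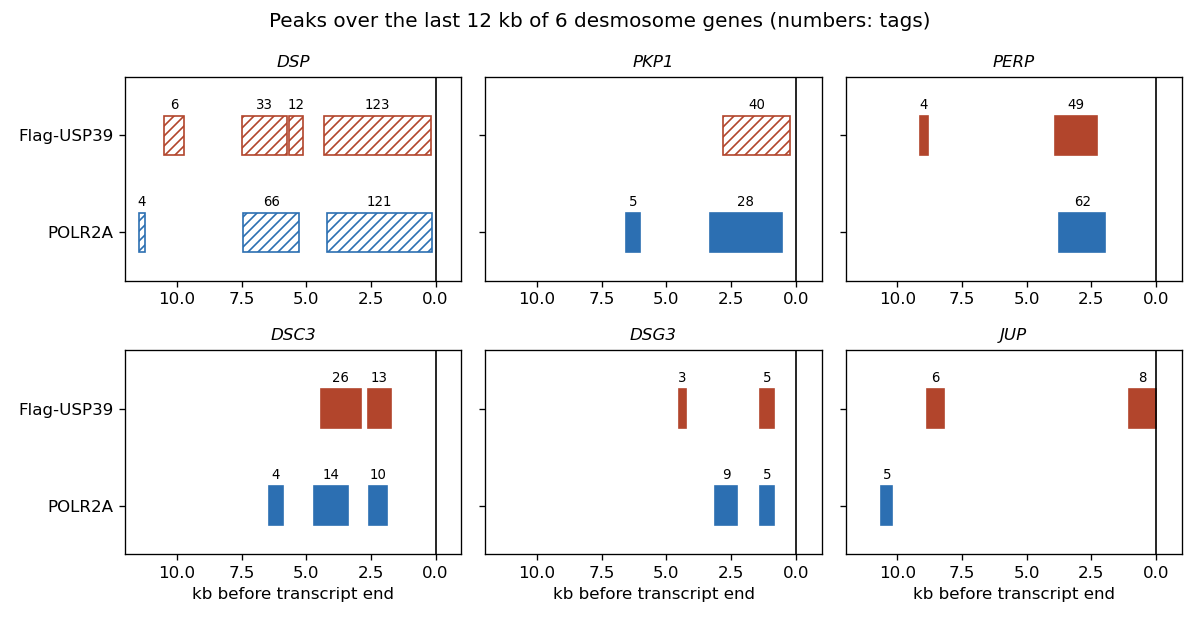
Listed peaks over the last 12 kb before the transcript end (x axis, kb, with the end at 0) of 6 desmosome genes, Flag-USP39 above POLR2A, with tags printed over each peak and hatching for peaks under another gene's symbol. Both antibodies have a peak of over 4 kb close to the DSP end, with 123 and 121 tags, and overlapping peaks near the ends of PKP1, PERP, DSC3 and DSG3.

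PERP had the largest peak under a member's own symbol for both antibodies. Flag-USP39 had 49 tags (36.3 to 64.8) at chr6:138411933-138413531, with a fold enrichment of 54.45, and POLR2A 62 tags (47.5 to 79.5) at chr6:138411610-138413381, with a fold enrichment of 53.04. By p-value the peak ranked 4 of 507 exon peaks in the Flag-USP39 list and 3 of 648 in the POLR2A list. The peaks shared 1449 bp (90.6% of the shorter), were centred 3091 and 2854 bp before the transcript end and had summits 797 bp apart. A second Flag-USP39 peak, of 4 tags, lay in an intron at chr6:138418451-138418770. Without PERP the members' own peaks held 86 Flag-USP39 tags.

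Per length, the order of the genes was led by DSP and PERP in both lists. Counted by position, DSP had 4.50 Flag-USP39 and 4.74 POLR2A tags per kb of transcript, and PERP 2.79 and 3.26. DSC3, with 0.823 and 0.767, and PKP1, with 0.807 and 0.828, were close to each other. Then came DSG3 with 0.582 and 0.614, and JUP with 0.436 and 0.280. DSC2 had none. DSC3, PKP1, DSG3 and JUP rest on 9 to 44 tags each, so their order is open to counting error and was not tested.

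The antibodies met at 5 of the 14 Flag-USP39 peaks (35.7%, 16.3 to 61.2), against 6.04% of that list, and at 6 of the 20 POLR2A peaks (30.0%, 14.5 to 51.9), against 5.10%. An overlap means at least 1 shared bp. The 5 Flag-USP39 peaks were 1 at PERP, 2 at DSC3 and 2 at DSG3, and the POLR2A peaks also included 1 at PKP1. That PKP1 peak met the Flag-USP39 peak named for TNNT2. Peaks of 1 gene are not independent, and the intervals cover counting error only. Peaks of 10 or more tags made up 3 of the 14 Flag-USP39 peaks, against 2.92% of the list, and 4 of the 20 POLR2A peaks, against 4.23%. All 3 member Flag-USP39 peaks of 10 or more tags met a POLR2A peak, where 87.6% of such peaks in the whole list did, and 2 of 11 smaller ones did, against 3.58%. For POLR2A the counts were 4 of 4, against 53.3%, and 2 of 16, against 2.98%. Of the overlapping peaks, 3 of 5 (Flag-USP39) and 4 of 6 (POLR2A) held 10 or more tags. Exon peaks met the other antibody in 5 of 9 cases for Flag-USP39 (25.4% over all its exon peaks) and 6 of 9 for POLR2A (18.8%).

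At the 5 sites with a member's symbol in both lists, the Flag-USP39 and POLR2A tags differed by less than counting error. PERP had 49 and 62, the DSC3 sites 26 and 14 and 13 and 10, and each DSG3 site 5 and 5. Overlap of 2 such intervals does not show that the tags are equal. The intervals overlapped too at the PKP1 site (40 and 28) and the largest DSP site (123 and 121). Fold enrichments of Flag-USP39 and POLR2A were further apart there, at 40.93 and 14.4 for the former and 62.51 and 25.2 for the latter site. Upstream of the latter, the Flag-USP39 list splits a site in 2 peaks, of 33 tags (22.7 to 46.3) and 12 tags (6.2 to 21.0). Both overlap the same POLR2A peak, of 66 tags (51.0 to 84.0). Each Flag-USP39 part alone lies below that POLR2A interval. No interval was made for the parts together, so whether the antibodies differ at this site was not tested. At another DSP site the 18 Flag-USP39 tags (10.7 to 28.4) stood against 6 POLR2A tags (2.2 to 13.1), with fold enrichments of 105.57 and 27.5 and intervals that overlap. Tags were not scaled between the libraries, whose depths are unknown.

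**Figure D4:**
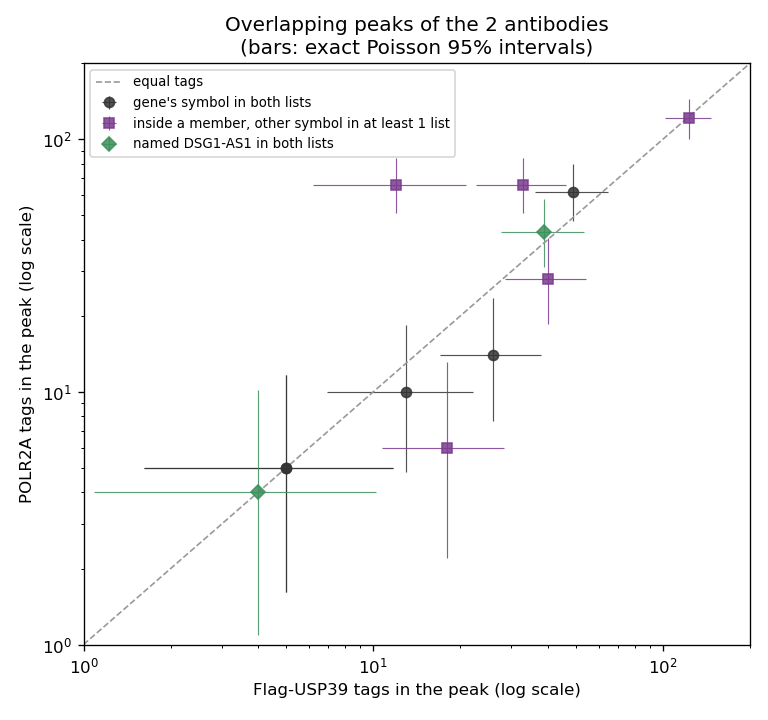
Flag-USP39 tags (x axis, log scale) against POLR2A tags (y axis, log scale) at overlapping peaks, with exact Poisson 95% intervals. Most pairs lie near the dashed line of equal tags, from 4 and 4 at DSG1-AS1 to 123 and 121 at DSP. The pairs farthest above it are the Flag-USP39 peaks of 33 and 12 tags that share 1 POLR2A peak of 66, and a DSP pair of 18 and 6 lies farthest below.

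Other desmosome genes had few tags under their own symbols. Of 7 (DSG2, DSG4, DSC1, PKP2, PKP3, PKP4 and CDSN), 1 had a Flag-USP39 peak and 2 a POLR2A peak, against 25.1% and 33.3% of all coding genes. PKP2, the plakophilin of heart and simple epithelia, had 1 Flag-USP39 peak and 3 POLR2A peaks of 4 tags each. The Flag-USP39 peak was intergenic, 234956 bp upstream of the start site. Of the POLR2A peaks 1 lay in an intron, and the others were intergenic, 52263 and 265220 bp upstream. DSC1 had 2 POLR2A peaks of 4 tags, 1 in an exon and 1 intergenic, 24601 bp upstream. By position DSC1 also held the Flag-USP39 peak of 3 tags that is listed for DSC2. A POLR2A peak of 5 tags was listed for DSG2-AS1, which overlaps DSG2 in the reference annotation.

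Of 12 adherens junction genes 7 had a Flag-USP39 and 6 a POLR2A peak, against 25.1% and 33.3% of coding genes, and 3 and 2 had an exon peak, against 2.11% and 2.73%. No difference from other genes was tested. CTNND1, encoding p120 catenin, had an exon peak of 6 tags for Flag-USP39 and 1 of 18 tags for POLR2A. CTNNB1, the beta-catenin gene, had 9 POLR2A tags at its promoter, at chr3:41240592-41241199. NECTIN1, an adhesion molecule, had 32 Flag-USP39 and 27 POLR2A tags 15483 and 15480 bp upstream, and AFDN, encoding the nectin-binding afadin, 11 Flag-USP39 tags in an exon.

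Plakins and cornified envelope partners had a Flag-USP39 peak at 4 and a POLR2A peak at 5 of 12 genes, and tight junction genes at 3 and 3 of 11. These counts are near the shares over all coding genes (25.1% and 33.3%). Exon peaks were listed at 3 of the 12 plakins and partners and at 1 of the 11 tight junction genes for each antibody. Over all coding genes 2.11% (Flag-USP39) and 2.73% (POLR2A) had one. CLDN1, the claudin of the epidermal barrier, had an exon peak of 18 tags for Flag-USP39 and 1 of 7 tags for POLR2A. PPL, encoding the plakin periplakin, had a POLR2A exon peak of 9 tags. Of 7 hemidesmosome genes 2 had a Flag-USP39 and 3 a POLR2A peak, with an exon peak at 1 gene for each antibody. ITGA6, an integrin chain of hemidesmosomes, had 7 Flag-USP39 tags in an exon.

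Markers of other cell types were tallied because several members are typical of skin. The shares over all coding genes, 25.1% for Flag-USP39 and 33.3% for POLR2A, apply to each tally of genes with a peak of any class. Of 13 epidermal keratinocyte markers 5 had a Flag-USP39 peak (194 tags in all, 0 to 103 per gene) and 4 a POLR2A peak (202 tags, 0 to 111). Most of these tags were at the genes of the basal keratins, KRT5 (103 Flag-USP39 and 111 POLR2A tags) and KRT14 (66 and 67), both with promoter peaks of each antibody. KRT1, KRT10, LOR, FLG, IVL, KRTDAP and SBSN had no peak in either list. Of 6 hair follicle markers 5 had a Flag-USP39 peak (307 tags, 0 to 137) and 6 a POLR2A peak (298 tags, 10 to 133). Exon peaks of Flag-USP39 and POLR2A were listed at 4 and 4 of these genes and at 3 and 1 keratinocyte markers. Over all coding genes the exon shares were 2.11% and 2.73%. Promoter peaks were listed at 5 and 4 hair follicle and 2 and 3 keratinocyte markers, against 2.47% and 11.1%. Of 8 mesenchymal markers 4 had a Flag-USP39 peak (34 tags, 0 to 18) and 4 a POLR2A peak (60 tags, 0 to 31). A promoter peak was listed at 1 of them for each antibody, VIM, with 4 Flag-USP39 tags and POLR2A peaks of 25 and 6 tags. None of the mesenchymal markers had an exon peak. Of 5 cardiac muscle markers 1 had a Flag-USP39 peak (48 tags, 40 of them the peak inside PKP1) and 2 a POLR2A peak (8 tags, 0 to 4), and MYH6, MYH7 and NPPA had none. Their part in the desmosome peaks was not tested.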

How the data were processed

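Each antibody has 1 deposited peak annotation table, called against the same input. Per the submitters' processing notes, Bowtie2 2.2.4, MACS 1.4.3 and hg19 were used; the treatment of duplicates and the gene annotation are not stated in the sources used here. The authors' tag counts per peak are raw whole numbers, per the file headers. The deposited peak score is -10 times log10 of the p-value, and the deposited fold is a linear ratio over background, per the file headers. The lowest scores, 50 and 40, put the lists' p-value thresholds at 1e-05 and 1e-04.

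Lines of the tables (20273 and 27766) were reduced to 1 per position, with the class from the nearest start site. Peak centres were placed on the deposited transcript start and end. Sharing 1 bp or more counted as overlap, a step checked on simulated intervals. Symbols were matched to RefSeq GRCh38.p14 names (99.3% of Flag-USP39 and 99.5% of POLR2A symbols), used for names, gene kind and neighbours and not for positions. Shares carry 95% Wilson intervals and tags exact Poisson ones. All 8 members were named whatever their values. Genes with a peak in other lists were named from the 4 or fewer with the lowest p-values, and not all of these were named. For some lists genes without a peak were named too. The members and lists were chosen with earlier results of these data known. Python 3.11.15, pandas 2.3.3 and scipy 1.17.1 were used. With 1 library per group no test was made. The alternatives were stricter p-values, tags or folds, other overlap rules, other class rules and, added later, 3 other choices of peaks.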

Additional observations from a re-analysis of the deposited data

Results flagged for a closer look

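The results given here come from peaks outside the members' symbols that held 10 or more tags, above the 3 counts that a count of 0 allows. No input value per peak was used here, so they could not be set against the input directly. Inside the DSP transcript, under the symbol SNRNP48, Flag-USP39 peaks held 123, 33, 18 and 12 tags and POLR2A peaks 121 and 66. Inside PKP1, under the symbol TNNT2, a Flag-USP39 peak held 40 tags. Under DSG1-AS1, which overlaps DSG1 in the reference annotation, 1 peak held 39 Flag-USP39 tags and 1 held 43 POLR2A tags. Peaks under another symbol made up 63.4% of the Flag-USP39 and 52.1% of the POLR2A tags inside the 7 members whose transcripts the tables give.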

How the results depend on the processing

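No paired analysis was possible because each group has 1 library. In all 66 of 96 recomputed counts stayed within 1.5 times the reported one. Some of the 66 could not move, because promoter counts of 0 stay 0 when peaks are only removed. Every Flag-USP39 peak also met 1e-05 already, and the lowest fold of its member peaks was 21.77. With a p-value of at most 1e-10 in both lists, 3 Flag-USP39 peaks at 2 members were left (3 in exons, 1 overlapping, 88 tags), and 2 POLR2A peaks at 2 members (2 in exons, 2 overlapping, 90 tags). With a p-value of at most 1e-05 in both lists, 12 POLR2A peaks were left. With 10 or more tags, 3 Flag-USP39 peaks at 2 members were left (3 in exons, 3 overlapping, 88 tags), and 4 POLR2A peaks at 3 members (4 in exons, 114 tags). With a fold enrichment of at least 20, 3 Flag-USP39 and 3 POLR2A peaks overlapped, and 13 POLR2A peaks were left. These settings remove peaks by construction.

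Settings added after the data were seen also moved counts. Peaks within a member's transcript, whatever their symbol, gave 10 overlapping Flag-USP39 peaks, 372 Flag-USP39 tags and 386 POLR2A tags. Without PERP 86 Flag-USP39 tags were left. Adding peaks named for DSG1-AS1 gave 1 gene with a promoter peak in each list and 209 Flag-USP39 tags. A peak of 3 to 5 tags has a counting interval that reaches below the listing limit, and the libraries' depths are unknown.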
